A study of Danio rerio with 2 samples.

Results

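In the dissected guts of zebrafish larvae, 92 of 9318 kept droplet barcodes were taken as collagen-producing fibroblasts, 31 of 3967 in the il26KO library and 61 of 5351 in the WT library. Kept barcodes had 500 or more genes and no more than 25% of their unique molecular identifiers (UMIs, the tags that count single mRNA molecules) from mitochondrial genes. A kept barcode was a fibroblast when at least 4 of the 7 genes col1a1a, col1a1b, col1a2, col5a1, col6a3, sparc and serpinh1b were detected, when these 7 made up at least 0.3% of its UMIs, when no UMI of epcam, cdh5 or rgs5a was present, and when acta2 and tagln together stayed under 1% of its UMIs. The levels of these 12 genes therefore chose the cells, and they are given below as a description only. The il26KO library came from larvae that lack the cytokine Il26 after CRISPR/Cas9 deletion of part of the il26 gene, and the WT library from wild-type larvae, all at 5 days post-fertilization (dpf). The AB line is the wild type named in the study's methods, and the parents of both groups were clutchmates kept in separate tanks, so genotype and tank cannot be told apart. Each library pooled 50 guts and there was 1 library per genotype, so no difference between genotypes was tested. Intervals on UMI counts and cell shares are 95% exact intervals that cover counting error only.

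Fibroblasts are the stromal cells that lay down the connective tissue of the gut wall. They secrete procollagen chains, which are hydroxylated and folded in the endoplasmic reticulum with the help of the chaperone Hsp47 (encoded by serpinh1b in zebrafish), cleaved outside the cell and crosslinked by lysyl oxidases into fibrils. The same cells shape the epithelium and its immune cells through secreted Wnt, BMP, retinoid and chemokine signals, and they are close relatives of the pericytes and smooth muscle cells that wrap vessels and gut tube, and of the mesothelium that covers the gut.

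The absence of rgs5a, a G-protein signalling regulator that marks pericytes and related mural cells, removed the largest share of cells of any criterion. Before it, 397 il26KO and 822 WT cells met the collagen, epcam and cdh5 criteria, and 35 il26KO and 76 WT cells were left after it. The collagen cells that met every other criterion but held rgs5a numbered 281 in il26KO and 572 in WT, and they serve below as the nearest comparison, chosen after the data had been seen. Most of them were well inside the rgs5a side of the line, with a median of 14 rgs5a UMIs in il26KO and 11 in WT, while 17 il26KO and 61 WT cells were kept out by a single UMI. In epithelial cells with at least 2 epcam UMIs, a type that should lack rgs5a, 10.5% of il26KO and 16.3% of WT cells held an rgs5a UMI. The fibroblasts were also shallower, with a median of 6897 UMIs per cell in il26KO and 5723 in WT, against 9682 in il26KO and 8195 in WT for the rgs5a-positive collagen cells and 14593 in il26KO and 10355 in WT for all kept barcodes. When every kept barcode was thinned to 1000 UMIs, the rule picked 72 il26KO and 147 WT cells, of which 16 in il26KO and 37 in WT were members at full depth. Most cells picked after thinning were thus not members at full depth. Membership of the set, and not only its edge, moves with depth, and the part of depth in the results below was not tested.

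**Figure D1:**
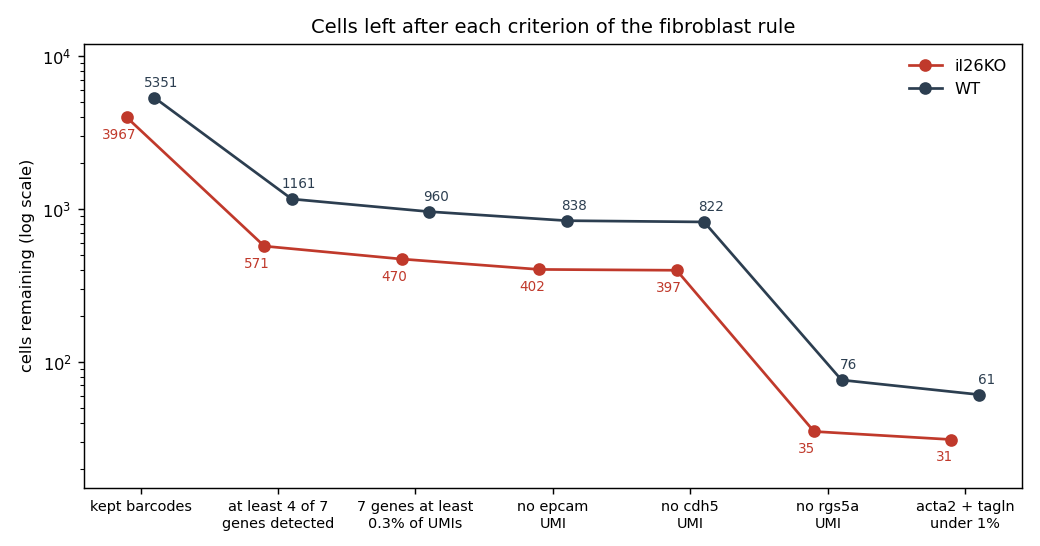
Number of cells (log axis) left in the il26KO and the WT library after each criterion of the rule, from left to right. The step that asks for no rgs5a UMI takes the count to 35 in il26KO and 76 in WT, against 397 and 822 one step earlier.

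Just inside the collagen limit, the lowest member had 0.318% of its UMIs in the 7 genes in il26KO and 0.343% in WT, and the highest barcode outside had 0.283% in il26KO and 0.232% in WT. At the acta2 and tagln limit, the highest member stood at 0.942% in il26KO and 0.997% in WT, and the next barcode outside at 2.47% in il26KO and 1.05% in WT. The median member had 0.812% of its UMIs in the 7 genes in il26KO and 0.806% in WT. All 7 genes were detected in 19 of the 31 il26KO and 29 of the 61 WT cells. Between the libraries, 11 kept barcodes were shared by sequence, and 0 of them were fibroblasts.

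The 7 genes that chose the cells summed to 8368 CPM (counts scaled to the total UMIs of the same cells) in il26KO fibroblasts and 9697 CPM in WT fibroblasts, against 667 CPM in il26KO and 1055 CPM in WT for all other kept cells. Among them serpinh1b had 845 UMIs over 28 il26KO cells and 1725 UMIs over 48 WT cells. The type I collagen chain col1a2 had 193 UMIs in 27 il26KO cells and 395 UMIs in 58 WT cells, and col1a1b 256 UMIs in 29 il26KO cells and 366 UMIs in 57 WT cells. Type V collagen, which starts type I fibrils, was seen through col5a1 in 30 il26KO and 54 WT cells. Most cells of either library thus held each of these genes. The receptor pdgfra, which marks many fibroblasts and took no part in the rule, was detected in 17 of 31 il26KO and 34 of 61 WT cells (54.8% and 55.7%). With every cell thinned to 1000 UMIs, 40.0% of il26KO and 32.2% of WT fibroblasts kept a pdgfra UMI. In epithelial cells with at least 2 epcam UMIs, a type that should lack it, the share was 0.256% in il26KO and 0.760% in WT. The 8 pdgfra stromal markers summed to 838 CPM in il26KO and 805 CPM in WT fibroblasts. In rgs5a-positive collagen cells they summed to 1052 CPM in il26KO and 1055 CPM in WT, so this list does not set the fibroblasts apart from those cells. Because pdgfra was missing from many members and other cell types' genes were present in some, the name fibroblast stands below for cells picked by the rule.

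Matrix genes outside the rule were set against all other kept cells where they had enough UMIs, a filter that favours genes high in the fibroblasts. Of 1424 genes with at least 50 fibroblast UMIs over both libraries, 831 (58.4%) were at least 1.5-fold higher in the fibroblasts in both libraries and 139 (9.76%) lower, with a median log2 ratio of 1.24 in il26KO and 1.07 in WT. A higher level than in other cells was thus common among all genes detected in the fibroblasts. All 3 further fibrillar collagen genes, all 7 fibril-associated and beaded collagen genes, all 5 collagen processing and crosslinking genes and all 6 elastic fibre and matrix glycoprotein genes with that many UMIs were higher, but many listed genes fell below it, and 8 fibrillar and 15 small proteoglycan genes were detected of which 3 and 1 reached it. The type XII collagen gene col12a1a, whose product sits on the surface of type I fibrils, stood at 487 CPM in il26KO and 240 CPM in WT fibroblasts, against 10.4 CPM in il26KO and 20.0 CPM in WT other cells. The crosslinking enzyme gene loxl2a was 4.28 log2 units higher in il26KO and 3.58 higher in WT fibroblasts than in other cells. In the procollagen folding list 3 of 5 genes were higher than in other cells, and its cyclophilin gene ppib differed from them by -0.06 in il26KO and -0.20 in WT on the log2 scale.

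The comparison with rgs5a-positive collagen cells is one of cells that were picked alike on their collagen genes and apart on rgs5a. Here 144 of 1424 genes (10.1%) were at least 1.5-fold higher in the fibroblasts in both libraries and 50 (3.51%) lower. Of the genes with 50 UMIs, 0 of 3 fibrillar, 0 of 7 fibril-associated and beaded and 0 of 5 crosslinking genes were higher. For matrix glycoproteins it was 2 of 6. Fibril-associated and beaded collagens summed to 2469 CPM in il26KO and 2762 CPM in WT fibroblasts, against 4615 CPM in il26KO and 5624 CPM in WT rgs5a-positive cells. The collagen lists thus do not set the fibroblasts above those cells. Fibroblasts had less of the type VI collagen chains col6a1 and col6a2, which form beaded filaments around cells. Gene col6a1 reached 588 CPM in il26KO and 898 CPM in WT fibroblasts, against 1919 CPM in il26KO and 2506 CPM in WT rgs5a-positive cells. The third chain, col6a3, which is a gene of the rule, differed by 0.06 in il26KO and 0.36 in WT on the log2 scale. The collagen-binding glycoprotein gene sparc, itself part of the rule, was at 1103 CPM in il26KO and 1324 CPM in WT fibroblasts, against 2856 CPM in il26KO and 3385 CPM in WT rgs5a-positive cells. Of the 11 basement membrane genes with 50 UMIs, 4 were lower and 2 higher in both libraries. The lower ones, named for the count after their values were seen, were the type IV collagen chains col4a5 (log2 -2.52 in il26KO and -2.53 in WT) and col4a6 (-2.11 in il26KO and -1.94 in WT), with nid1b and col18a1a. The higher ones were the laminin chain lama5 (2.29 in il26KO, where 1 cell gave 18 of 28 UMIs, and 2.58 in WT) and the nidogen nid2a (1.19 in il26KO and 0.78 in WT). The type IV chain col4a1 differed by -0.09 in il26KO and -0.89 in WT. The small proteoglycan gene dcn (decorin, which binds collagen fibrils) was lower, by -0.91 in il26KO and -1.62 in WT, with only 39 UMIs in il26KO and 41 in WT fibroblasts.

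**Figure D2:**
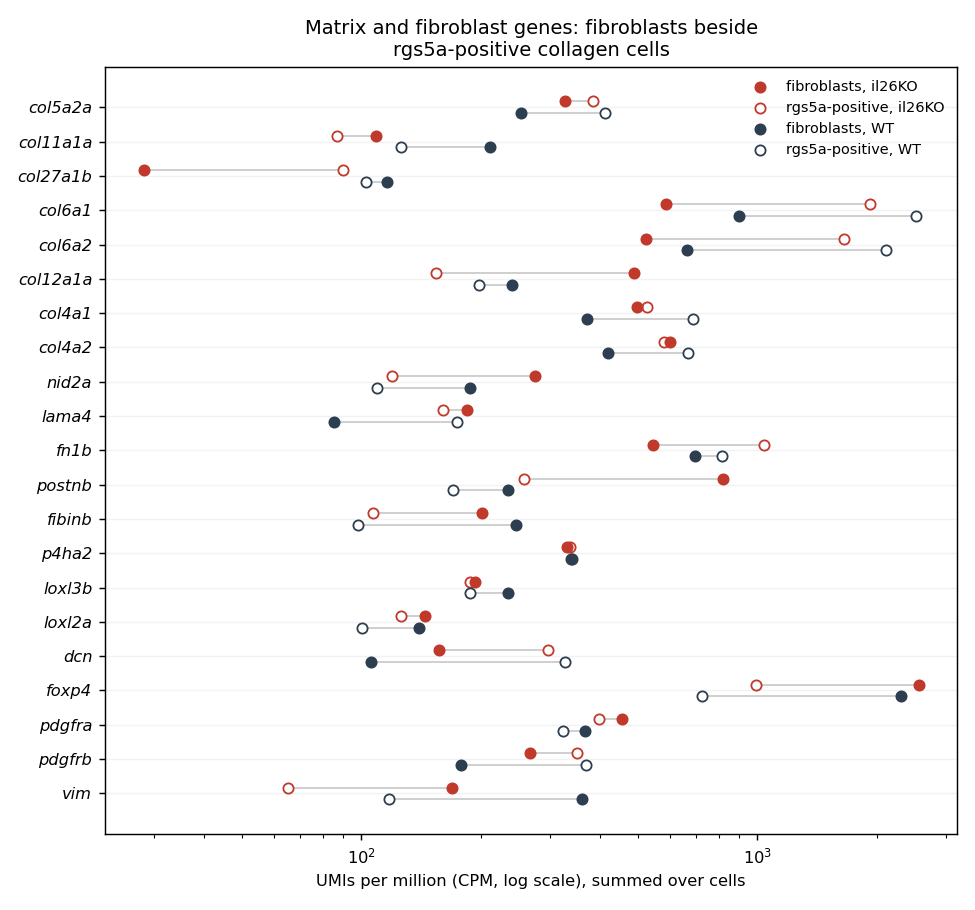
Level of 21 matrix and fibroblast genes in CPM (log axis), summed over the cells of each library, in fibroblasts (filled) and in rgs5a-positive collagen cells (open), with il26KO above WT for each gene. The col6a1 and col6a2 points of the fibroblasts lie left of those of the rgs5a-positive cells in both libraries, and the foxp4, vim and fibinb points lie right of them.

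Several transcription factor and signalling genes were higher in the fibroblasts than in the rgs5a-positive cells. The forkhead factor gene foxp4 reached 2553 CPM in il26KO and 2300 CPM in WT fibroblasts, against 993 CPM in il26KO and 723 CPM in WT rgs5a-positive cells and 169 CPM in il26KO and 202 CPM in WT for all other kept cells. It was detected in 26 il26KO and 50 WT fibroblasts. After thinning, 66.7% of il26KO and 66.1% of WT fibroblasts held a foxp4 UMI, against 40.2% of il26KO and 28.7% of WT rgs5a-positive cells. The intermediate filament gene vim was at 169 CPM in il26KO and 361 CPM in WT fibroblasts, against 65.2 CPM in il26KO and 117 CPM in WT rgs5a-positive cells, but 1 cell gave 27 of its 42 UMIs in il26KO and 78 of 140 in WT. The neuropilin gene nrp2b, a co-receptor for semaphorins and VEGF, was 1.40 higher in il26KO and 1.02 higher in WT on the log2 scale. The Hedgehog receptor and target gene ptch1 was 0.93 higher in il26KO, where 1 cell gave 20 of 46 UMIs, and 0.96 higher in WT. Among the 20 genes that stood highest over all other cells in both libraries were also pcdh7b, a protocadherin, meis2a, a homeobox factor, pard3bb, a polarity protein gene, and the small heat shock protein gene hspb1. All 8 Hedgehog genes, all 7 Wnt genes and all 7 PDGF and FGF genes with at least 50 UMIs were at least 1.5-fold higher than in all other kept cells in both libraries, beside 58.4% of all genes so counted. Over rgs5a-positive cells the same held for 2 of 8 Hedgehog genes (ptch1 and gli2a), 1 of 7 Wnt genes (rspo1) and 0 of 7 PDGF and FGF genes, beside 10.1% of all genes.

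The fibroblasts were not one population. Clustering of the 92 cells, without the genes of the rule and with each library's mean removed, gave 2 sub-groups at the planned resolution of 0.5, one of 71 cells and one of 21 cells. The leading genes of the larger one were itga9, an integrin chain, nme2b.1 and krt94. It split into 28, 24 and 19 cells at a resolution of 0.8, chosen after the data had been seen, while the smaller one kept the same 21 cells. The leading genes of each sub-group were used to make it and are a description.

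The 21 cells, called sub-group 3 here (8 il26KO and 13 WT), were led by cfd, BX322618.1 and yjefn3. Gene cfd encodes complement factor D, the protease that starts the alternative complement pathway. Sub-group 3 held 3363 of the 3837 cfd UMIs of all fibroblasts, in 20 of its 21 cells, and 196 of the 255 pdgfra UMIs, also in 20 cells. It held 78.6% of the nrp2b UMIs and 65.0% of the foxp4 UMIs, so these levels in the set rest largely on it. All UMIs of the mesothelial genes podxl and wt1a lay outside it.

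Sub-group 1 (28 cells, 16 il26KO and 12 WT) was led by podxl, aqp1a.1 and jam2b. Gene podxl encodes a sialomucin of mesothelium and podocytes, aqp1a.1 a water channel, and jam2b a junction protein found on zebrafish mesothelium. Of the 10 mesothelial markers in the files, 4 were at least 2-fold higher there. Among its 10 leading genes were podxl and aldh1a2, the enzyme gene for retinoic acid synthesis, so it is called mesothelial-like. The listed markers tcf21 and cdh11 did not follow, with 2 of 21 tcf21 UMIs there and cdh11 in 8 of its 28 cells, against 12 of 19 in sub-group 4. Its 16 il26KO cells held 165033 UMIs and its 12 WT cells 39677, so its WT cells were shallower on average. Sub-group 1 held 377 of 426 podxl UMIs in 17 of its 28 cells (11 of 16 il26KO and 6 of 12 WT). It also held 51 of 80 UMIs of the mesothelial transcription factor gene wt1a and 200 of 294 UMIs of the periostin gene postnb. Of these, 50 wt1a and 192 postnb UMIs came from il26KO cells. In WT, wt1a was at 25.2 CPM in sub-group 1 and 117 CPM in sub-group 4, and postnb at 202 CPM and 406 CPM.

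Sub-group 2 (24 cells, 3 il26KO and 21 WT) was led by cxcl12a, zgc:153704 and sema3fb, and cxcl12b was also among its leading genes. Genes cxcl12a and cxcl12b encode chemokines that attract cells through Cxcr4, and sema3fb a semaphorin guidance cue. It held 236 of 289 cxcl12a UMIs and 89 of 132 cxcl12b UMIs. Sub-group 4 (19 cells, 4 il26KO and 15 WT) was led by si:dkey-4p15.3, myh11a and rergla. Gene si:dkey-4p15.3 is matched to the heat shock cognate gene hspa8b, and myh11a encodes the smooth muscle myosin heavy chain. The myosin light chain kinase gene mylkb was also among the leading genes. In sub-group 4, 4 of the 12 smooth muscle markers were at least 2-fold higher, although the rule had removed cells rich in acta2 and tagln. Neither sub-group 2 nor sub-group 4 was given a cell type name.

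Genes pdgfra and podxl were rarely found in the same cell. Of the 51 cells with a pdgfra UMI, 5 also held a podxl UMI (9.80%, and 20.0% of the 25 podxl cells), while 18 held cxcl12a and 33 held cfd. Over all 92 cells, 25 held podxl, 29 held cxcl12a and 51 held cfd. Other pairs did not show such a split. Gene cfd was in 16 of the 25 podxl cells (64.0%), beside 64.7% of the pdgfra cells. Of the 17 cells with a wt1a UMI, 8 (47.1%) also held pdgfra. The 7 genes of the rule were present in each sub-group. They summed to 7580 CPM in il26KO and 10636 CPM in WT cells of sub-group 1, to 9522 CPM in WT cells of sub-group 2, to 9911 CPM in il26KO and 11515 CPM in WT cells of sub-group 3, and to 8865 CPM in WT cells of sub-group 4. Sub-groups 2 and 4 held too few il26KO cells, 3 and 4, for their values to be set beside WT.

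**Figure D3:**
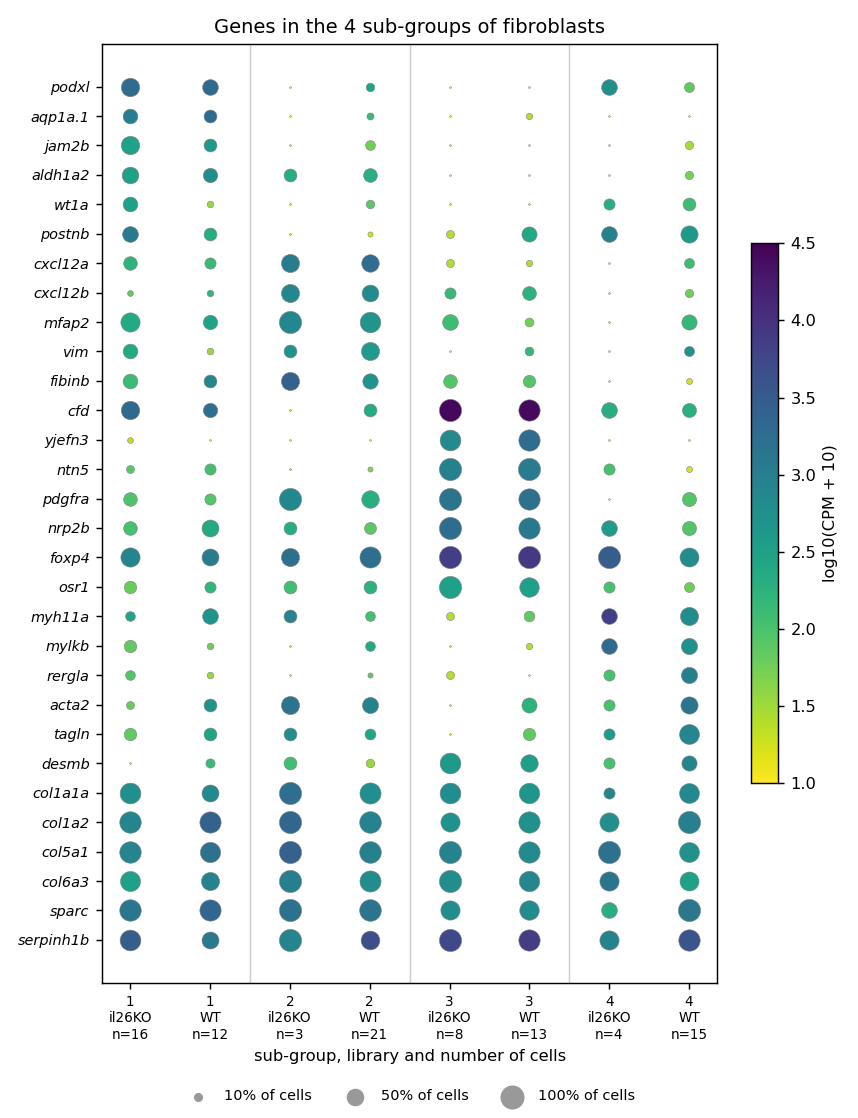
Genes (down the page) in the 4 sub-groups of fibroblasts at resolution 0.8, with il26KO left of WT in each and the number of cells below. Dot size is the share of cells with at least 1 UMI and colour is log10 of CPM plus 10. Genes cfd, yjefn3 and ntn5 have their largest dots in sub-group 3 and jam2b and aqp1a.1 theirs in sub-group 1, while the 6 genes of the rule at the bottom have dots in every column.

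**Figure D4:**
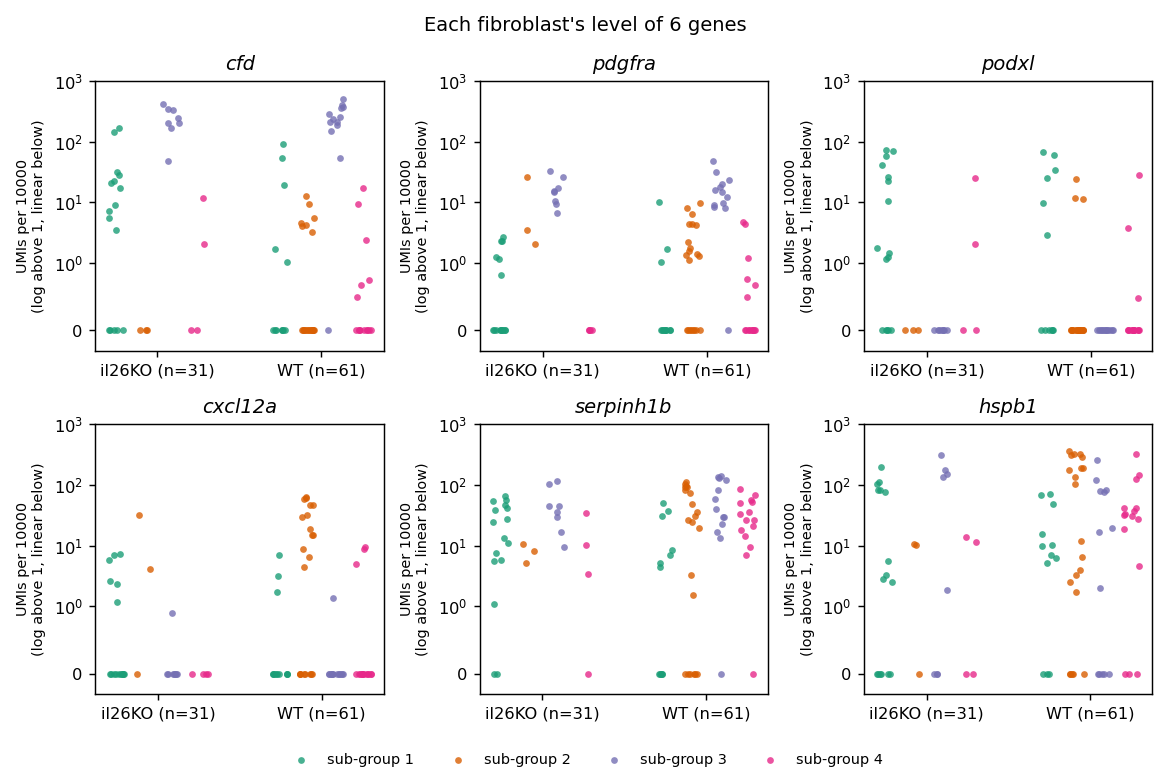
Depth-scaled UMIs in each of the 31 il26KO and 61 WT fibroblasts for 6 genes, one dot per cell, coloured by sub-group (vertical axis logarithmic above 1 and linear below). Gene cfd reaches its highest values in sub-group 3 of either library, podxl is at 0 in every cell of sub-group 3, and serpinh1b is spread over all 4 sub-groups.

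Markers of other cell types were present to different degrees. The 15 enterocyte markers summed to 1873 CPM in il26KO and 1719 CPM in WT fibroblasts, against 43695 CPM in il26KO and 37252 CPM in WT empty droplets (barcodes of 1 to 100 UMIs). If all of it were free RNA, that would correspond to 4.29% of il26KO and 4.62% of WT fibroblast UMIs. Leukocyte markers had 2 UMIs in il26KO and 5 in WT, erythrocyte markers 0 and 2, glia markers 9 and 11, goblet markers 6 and 8, and endothelial markers 24 and 22. Epidermis markers were more frequent, at 1063 CPM in il26KO and 1712 CPM in WT, with 55.2% of the WT UMIs in 1 cell, and acinar markers had 9 UMIs in il26KO and 186 in WT, beside 219 CPM in il26KO and 3920 CPM in WT empty droplets. Notochord markers had 188 UMIs in 25 il26KO cells and 197 UMIs in 47 WT cells. That was 757 CPM in il26KO and 509 CPM in WT, against 62.8 CPM in il26KO and 106 CPM in WT empty droplets. The rgs5a-positive collagen cells had 632 CPM of these markers in il26KO and 706 CPM in WT. The list includes cav1, a leading gene of sub-group 1 (830 CPM there and 104 CPM in the other fibroblasts). Skeletal muscle markers had 73 UMIs in 24 il26KO cells and 108 UMIs in 32 WT cells, or 294 CPM in il26KO and 279 CPM in WT, against 2197 CPM in il26KO and 1486 CPM in WT empty droplets. Several lists came from single cells. One WT cell held 82.2% of the WT chondrocyte marker UMIs, and one il26KO cell held 88.2% of the il26KO osteoblast marker UMIs and one 62.4% of the hepatocyte marker UMIs.

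The other stromal types differed between the libraries inside the set. The smooth muscle markers acta2 and tagln, which the rule used, had 44 UMIs in il26KO and 549 in WT. The other 10 smooth muscle markers, a sum chosen after seeing the data, came to 1115 CPM in il26KO and 1923 CPM in WT fibroblasts (log2 ratio -0.79, -0.99 to -0.59). A combined acta2 and tagln share of at least 0.2% was found in 1 il26KO cell and 12 WT cells. The 10 mesothelial markers summed to 3749 CPM in il26KO and 2192 CPM in WT (0.77, 0.64 to 0.91), with UMIs in 30 il26KO and 53 WT cells. For these markers 1 cell gave 32.3% of the il26KO UMIs and 1 cell 12.1% of the WT UMIs. The 9 mural markers, with rgs5a at 0 by the rule, summed to 1103 CPM in il26KO and 493 CPM in WT (1.16, 0.89 to 1.44), but 51.5% of the il26KO UMIs came from 1 cell. The pdgfra stromal markers summed to 838 CPM in il26KO and 805 CPM in WT (0.06, -0.20 to 0.31).

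The share of fibroblasts was the first comparison of genotypes. It was 0.781% of kept barcodes in il26KO (0.532 to 1.11%) and 1.14% in WT (0.873 to 1.46%), a log2 ratio of -0.54 with an interval of -1.22 to 0.10 that included 0. Among kept barcodes without epcam the share was 1.71% in il26KO and 2.04% in WT, and among collagen cells that met every criterion but that on rgs5a it was 9.94% in il26KO and 9.64% in WT, with a log2 ratio of 0.04 (-0.63 to 0.69). The rgs5a-positive collagen cells made up 7.08% of kept barcodes in il26KO and 10.7% in WT, with a log2 ratio of -0.59 (-0.80 to -0.39). Among kept barcodes without epcam the log2 ratio was -0.25 (-0.92 to 0.40). A lower share of fibroblasts in il26KO was thus not established. Their number in the gut, their recovery from the tissue and the number of other kept cells cannot be told apart here.

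Expression within the fibroblasts was compared next. Of the 1424 genes, 293 (20.6%) were at least 1.5-fold higher in il26KO and 151 (10.6%) at least 1.5-fold lower, with a median log2 ratio of 0.11. Scaled by the median of gene ratios, which takes out that shift, 232 were higher and 191 lower. The counts of higher and lower members of each list below stand beside the unscaled shares of 20.6% and 10.6%. These ratios stand beside a different make-up of the 2 sets of cells. The mesothelial-like sub-group 1 gave 66.5% of all fibroblast UMIs in il26KO and 10.2% in WT, sub-group 2 gave 3.91% in il26KO and 30.9% in WT, sub-group 4 gave 4.32% in il26KO and 42.0% in WT, and sub-group 3 gave 25.3% in il26KO and 16.9% in WT. The part of this make-up in the ratios below was not tested over the whole set, and values within sub-group 3 are given beside the list ratios. Within sub-group 3, 293 genes were compared, with a median log2 ratio of 0.15. Of these, 43 (14.7%) were at least 1.5-fold higher in il26KO and 37 (12.6%) lower. The cells of sub-group 3 are part of the whole set, so a ratio there is not separate support for one in the whole set.

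The 7 genes of the rule, whose levels chose the cells and are therefore only described, have been given above. The 11 other fibrillar collagen genes summed to 624 CPM in il26KO and 741 CPM in WT (-0.25, -0.54 to 0.04), with 2 of the 3 that had at least 50 UMIs lower, col11a1a and col27a1b. Fibril-associated and beaded collagens had a ratio of -0.16 (-0.31 to -0.02), with col12a1a higher (1.01, 0.62 to 1.43) and col6a1 and col19a1 lower (-0.61 and -1.03). Within sub-group 3 the ratio was 0.72 (-0.40 to 1.90) for the fibrillar and 0.26 (-0.13 to 0.65) for the fibril-associated and beaded collagens. Basement membrane genes summed to 3197 CPM in il26KO and 2623 CPM in WT (0.29, 0.15 to 0.42), with 1 of 11 past 1.5-fold, the laminin chain lama4. Within sub-group 3 this ratio was 0.07 (-0.22 to 0.36), and with the rgs5a criterion dropped it was -0.14. Small leucine-rich proteoglycans had a ratio of 0.60 (0.17 to 1.02) on 94 UMIs in il26KO and 97 in WT, and within sub-group 3 they had 26 UMIs in il26KO and 7 in WT.

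Secreted immune genes differed in both directions. Chemokines, cytokines and complement summed to 10442 CPM in il26KO and 7200 CPM in WT (0.54, 0.46 to 0.61). Of 9 genes, 3 were higher and 3 lower, beside 20.6% of all genes higher and 10.6% lower. The sum was mainly cfd, with 2017 UMIs in 21 il26KO cells and 1820 UMIs in 30 WT cells (0.79, 0.70 to 0.88). Within sub-group 3, cfd had 1667 UMIs in il26KO and 1696 in WT (0.03, -0.07 to 0.13), and the whole list had a ratio of 0.00 (-0.09 to 0.10). Gene cfd was the first leading gene of sub-group 3 and was used to make it. It gave most of the list there, which had 1706 UMIs in il26KO and 1771 in WT. Both ratios are therefore a description, and cannot show whether the whole-set difference comes from the make-up of the cells. With the rule genes set to at least 1% of UMIs, the ratio of the list was -0.21. In the other direction, cxcl12a had 39 UMIs in 9 il26KO cells and 250 UMIs in 20 WT cells (-2.02, -2.56 to -1.55), of which 225 WT UMIs lay in sub-group 2. Its paralogue cxcl12b followed with 25 UMIs in il26KO and 107 in WT. In rgs5a-positive collagen cells cxcl12a had a ratio of 0.56, and with the rgs5a criterion dropped its ratio was 0.39.

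Several signalling lists were higher in il26KO over the whole set, and the counts of their members stand beside 20.6% of all genes higher and 10.6% lower. Hedgehog genes had a ratio of 0.37 (0.18 to 0.56), with 3 of 8 higher, gli3, cdon and gas1a, and 1 lower, foxf2a. Within sub-group 3 gli3 had a ratio of 1.12 (0.07 to 2.24) and cdon one of -1.53 (-3.01 to -0.24). Wnt genes had a ratio of 0.36 (0.17 to 0.55), with wnt5b, rspo1 and sfrp1a higher and 0 of 7 lower. TGF-beta and BMP genes had a ratio of 0.33 (0.21 to 0.45), with 4 of 14 higher and 2 lower. Of the 4, id1, a target of BMP signals, had 112 UMIs in 18 il26KO cells and 67 UMIs in 27 WT cells, with 47 of the il26KO UMIs in 1 cell. Within sub-group 3 the ratios were -0.37 (-0.79 to 0.05) for Hedgehog, 0.45 for Wnt and 0.17 (-0.15 to 0.49) for TGF-beta and BMP genes, all with intervals that included 0. Retinoid genes had a ratio of 0.41 (0.30 to 0.52), carried by the retinol-binding protein gene rbp4 with 846 UMIs in il26KO and 957 in WT. Within sub-group 3 the retinoid ratio was 0.21 (-0.11 to 0.54). PDGF and FGF signalling had a ratio of 0.15 (-0.02 to 0.31) in the whole set and -0.35 (-0.60 to -0.09) within sub-group 3, on the other side of 0. IGF binding and growth had a ratio of -0.21 with an interval that included 0, and of -0.30 (-0.97 to 0.36) within sub-group 3.

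**Figure D5:**
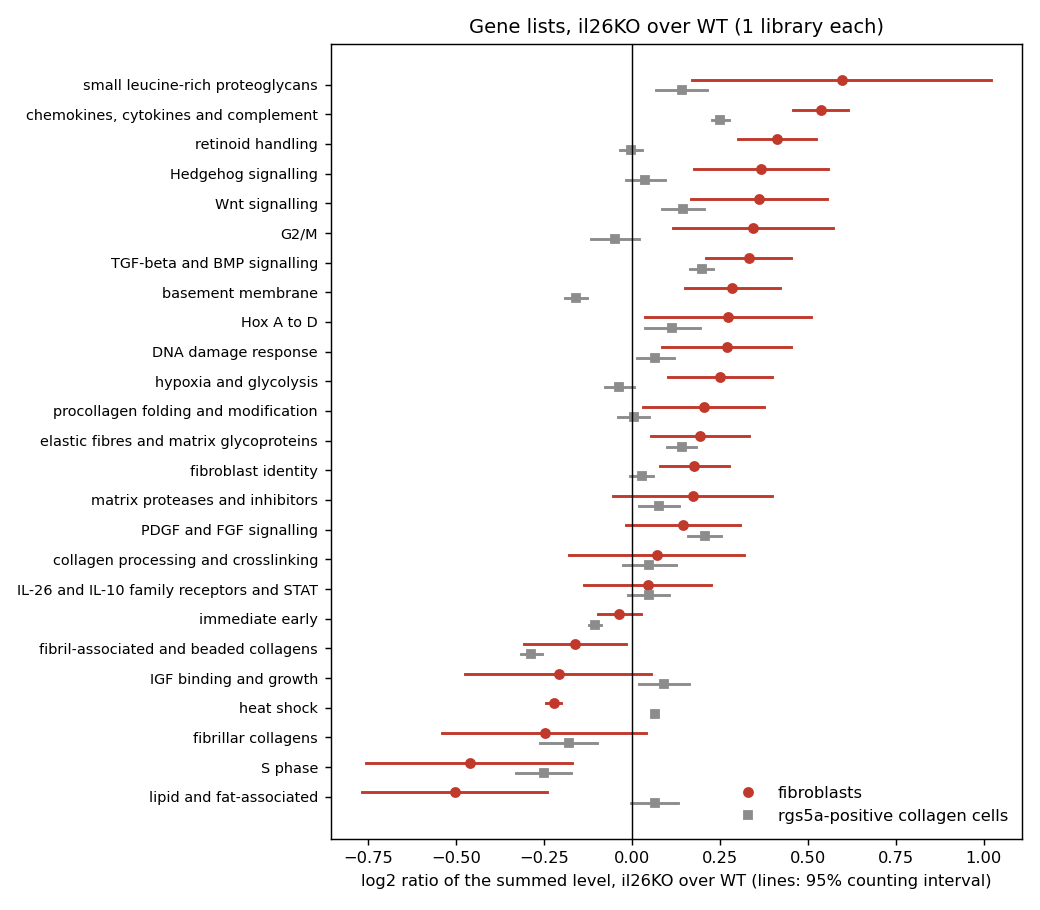
Log2 ratio of the summed level of each of 25 gene lists, il26KO over WT, in fibroblasts (circles) and in rgs5a-positive collagen cells (squares), with 95% counting intervals as lines and 1 library per genotype. Small leucine-rich proteoglycans (0.60) and chemokines, cytokines and complement (0.54) are highest and lipid and fat-associated genes (-0.50) lowest in fibroblasts.

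Among single genes with at least 100 UMIs, those highest in il26KO over WT included podxl (306 UMIs in il26KO and 120 in WT, log2 1.98), which within sub-group 1 was at 1818 CPM in il26KO and 1941 CPM in WT (-0.094, -0.46 to 0.29), ccbe1, a matrix protein gene needed for lymphatic growth in zebrafish (81 UMIs in 13 il26KO cells and 35 UMIs in 15 WT cells, 1.82), and postnb (203 UMIs in il26KO, 68 of them in 1 cell, and 91 in WT, 1.79). Gene podxl was the first leading gene of sub-group 1 and was used to make it, so its ratio there is a description only. Within sub-group 1 postnb was at 1163 CPM in il26KO and 202 CPM in WT (2.53, 1.52 to 3.76). For hmgn2, a nucleosome-binding protein gene, 221 of 320 il26KO UMIs came from 1 cell. Without the cell that held the most hmgn2 UMIs in each library, the hmgn2 ratio was -0.11, against 1.25 with all cells. The diacylglycerol kinase gene dgkh (1.24) had a ratio of 1.03 (0.38 to 1.72) within sub-group 3, where ccbe1 had one of 0.29 (-0.57 to 1.16). The lowest were rergla (15 UMIs in il26KO and 169 in WT, -2.79), spon1b, a spondin gene (15 UMIs in il26KO and 118 in WT, -2.28), large2, a glycosyltransferase gene (36 UMIs in il26KO and 235 in WT, -2.04), and cxcl12a. Of the WT rergla UMIs, 160 lay in sub-group 4, which had 4 il26KO cells. The WT cell with the most UMIs of the gene gave 65 for rergla, 43 for spon1b and 44 for large2. The smooth muscle light chain myl6 was low too (-1.85). Of the 6 smooth muscle markers with at least 50 UMIs, 5 were at least 1.5-fold lower, beside 10.6% of all genes. The other, myh11a, was at least 1.5-fold higher, beside 20.6% of all genes. The 5 include acta2 and tagln, whose levels chose the cells, so this count is a description only. The Hsp90 partner gene fkbp4 was lower in the whole set (-1.41) and within sub-group 3 (-1.21, -2.12 to -0.37).

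Heat shock genes took a large part of the mRNA in both libraries, 112764 CPM in il26KO and 131559 CPM in WT fibroblasts, against 34187 CPM in il26KO and 35810 CPM in WT for all other kept cells. The rgs5a-positive collagen cells had 137495 CPM in il26KO and 131332 CPM in WT. The il26KO over WT ratio in the fibroblasts was -0.22 (-0.24 to -0.20), or 0.044 with the rgs5a criterion dropped, and 4 of 20 genes were lower and 1 higher. The chaperone gene hsp90aa1.2 had 4597 UMIs in 28 il26KO cells and 12059 UMIs in 60 WT cells (-0.75). Gene hsp70l went the other way (0.44), and its ratio in the empty droplets was 0.84. Within sub-group 3 the list had a ratio of -0.06 (-0.09 to -0.02). Immediate early genes, which respond to cell handling within minutes, had a ratio of -0.04 (-0.10 to 0.02), and within sub-group 3 one of -0.53 (-0.66 to -0.39). Gene junba had a ratio of 0.60 in the whole set and -2.10 (-3.19 to -1.14) within sub-group 3. The S phase list had 144 UMIs in il26KO and 309 in WT (-0.46, -0.76 to -0.17), of which 1 cell gave 38.9% in il26KO and 23.0% in WT, and the G2/M list had 292 UMIs in il26KO and 359 in WT (0.34, 0.12 to 0.57). With equal weight per cell the S phase ratio was 0.58, with the rule genes at 1% or more of UMIs it was -1.74, and with the rgs5a criterion dropped the G2/M ratio was -0.014. Within sub-group 3 the ratios were 0.12 (-0.79 to 1.03) for S phase and 0.06 (-0.53 to 0.64) for G2/M. DNA damage response genes had a ratio of 0.27 (0.09 to 0.45), with sesn1 higher and cdkn1a lower, and within sub-group 3 one of -0.49 (-0.91 to -0.07). The whole-set interval held 0.11, the median log2 ratio of the 1424 genes.

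Of the remaining lists, hypoxia and glycolysis (0.25, with 4 of 12 genes higher and 0 lower), matrix glycoproteins (0.19), procollagen folding (0.20), fibroblast identity (0.18) and Hox A to D (0.27) had ratios above 0 with intervals that excluded it, and lipid and fat-associated genes were at -0.50 (-0.77 to -0.24). The intervals of the lists above 0 all held 0.11, the median log2 ratio of the 1424 genes. These lists were thus not set apart from the general shift. With the rgs5a criterion dropped, the ratios were -0.015 for hypoxia and glycolysis and 0.025 for lipid and fat-associated genes, and with the rule genes at 1% or more of UMIs that of procollagen folding was -0.035 and that of Hox genes 1.08. Within sub-group 3 fibroblast identity was on the other side of 0, at -0.16 (-0.31 to -0.0039), and so were matrix glycoproteins, at -0.29 (-0.67 to 0.086). There hypoxia and glycolysis had 0.18 (-0.10 to 0.47), procollagen folding 0.19 (-0.21 to 0.59), Hox genes 0.39 (-0.13 to 0.92) and lipid genes -0.42 (-1.38 to 0.52). Collagen processing (0.07) and matrix proteases (0.17) had intervals that included 0, as they did within sub-group 3 (0.21 and -0.23).

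The targeted gene il26 had 0 UMIs in the fibroblasts of either library, and over all barcodes it had 0 UMIs in il26KO and 1 in WT, too few to check the labels. Its receptor subunit genes were scarce. Gene il20ra had 11 UMIs in 5 il26KO cells and 8 UMIs in 7 WT cells, and il10rb had 5 UMIs in 5 il26KO cells and 5 UMIs in 5 WT cells. That made il20ra 44.3 CPM in il26KO and 20.7 CPM in WT fibroblasts, against 26.6 CPM in il26KO and 20.7 CPM in WT for all other kept cells, and the interval of the il26KO over WT ratio ran from -0.35 to 2.62. The list of Il26 and Il10 family receptors, Jak and Stat genes had a ratio of 0.05 (-0.14 to 0.23), and within sub-group 3 one of -0.44 (-0.93 to 0.040). The feedback inhibitor gene socs3b was the single member past 1.5-fold, with 34 UMIs in 11 il26KO cells and 117 UMIs in 36 WT cells (-1.12, -1.74 to -0.58), while socs3a had a ratio of 0.28 (0.01 to 0.56) with 102 of 199 il26KO UMIs in 1 cell.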

How the data were processed

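Cells were dissociated from dissected guts of larvae at 5 dpf and captured in droplets, 1 library per genotype. The deposited files hold raw UMI counts per gene for every barcode, unfiltered. Their headers name Cell Ranger 7.1.0 and the submitters' processing notes the build danRer11, while whether intronic reads were counted is not given in the sources used here. Features with 1 symbol in common were summed, from 27771 to 27056. The files hold 122200924 UMIs in il26KO and 125236138 in WT over all barcodes.

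The members, gene lists and marker lists were chosen with earlier results of these data known. Fibroblast UMIs were summed per library (248325 in il26KO and 387354 in WT) and given as CPM. Log2 ratios of single genes carry a pseudocount of 1 UMI scaled to depth, and ratios of lists none. Ratio intervals are exact conditional binomial, shares have Clopper-Pearson intervals, and the confidence level is 95%. Cells are not replicates, so no test was run. Lists (25, with 881 of 928 listed genes in the files) leave out the genes of the rule.

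Named genes were those of the rule, in each list the 4 highest and up to 4 with the largest ratio, the 20 highest over other cells, the 10 highest and 10 lowest ratios among genes with at least 100 UMIs, UMIs in 10 or more cells and 2-fold or more over empty droplets in the higher library, il26 and its receptor genes, and the 3 leading genes of each sub-group. Genes gli2a, mylkb, col4a5, col4a6, nid1b and col18a1a were named after their values were seen. Clusters used scanpy 1.11.5 (1000 variable genes, 20 components, 15 neighbours, Leiden). Doublets were not removed. As an alternative, the 126 il26KO and 229 WT barcodes with the highest Scrublet scores were left out, and 0 of them were fibroblasts. Alternatives changed the cell filters, each criterion of the rule, the scaling, the weight of cells, the free RNA correction and the pseudocount. The ratio code was tested on simulated data. Cell labels of the study were not used here.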

Additional observations from a re-analysis of the deposited data

Results flagged for a closer look

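The genes of the rule and the fibroblast markers, which include genes that chose the cells, are left out here. For 8 gene lists the il26KO over WT log2 ratio of the summed level lay on one side of 0 in the fibroblasts and on the other in the rgs5a-positive collagen cells, each with a counting interval that excluded 0, and the difference between these populations was not tested. Basement membrane genes had 0.29 in fibroblasts and -0.16 in rgs5a-positive cells, and heat shock genes -0.22 in fibroblasts and 0.07 in rgs5a-positive cells. Mesothelial markers had 0.77 in fibroblasts, where 1 il26KO cell held 32.3% of the il26KO UMIs, and -0.12 in rgs5a-positive cells. Notochord markers, a list that includes the sub-group 1 leading gene cav1, had 0.57 in fibroblasts and -0.16 in rgs5a-positive cells. Mural markers had 1.16 in fibroblasts, where 1 il26KO cell held 51.5% of the il26KO UMIs, and -0.11 in rgs5a-positive cells. The other three rest on few cells. Chondrocyte markers had -1.11 in fibroblasts and 0.80 in rgs5a-positive cells, with 82.2% of the WT fibroblast UMIs in 1 cell. Fin and dermal fibroblast markers had -0.88 in fibroblasts and 0.92 in rgs5a-positive cells, and neuron markers -1.12 in fibroblasts and 0.80 in rgs5a-positive cells, with 71.7% and 81.8% of the WT fibroblast UMIs in 1 cell.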

How the results depend on the processing

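No paired analysis was possible because each genotype has 1 library, and no replicate could be left out. The share of fibroblasts among kept barcodes was lower in il26KO than in WT under all 11 alternatives (log2 -0.71 to -0.25), with an interval below 0 in 4, while among collagen cells that met every criterion but that on rgs5a it was 0.04 (-0.63 to 0.69). A main ratio whose interval excluded 0 changed direction in 18 of 390 recomputed values of gene lists and in 12 of 438 of single genes. Changes of sign where the main interval included 0 were not counted, although such lists are among the 390 values. A further 54 values of gene lists and 71 of single genes lay outside the main interval without a counted change of direction. The depth limits single genes, since 1424 reached 50 UMIs. Where the cells or the minimum of UMIs change below, so does the number of genes tested. Those counts of genes higher and lower therefore cannot be set beside the counts among the 1424. The cause of the changes below was not tested.

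With rgs5a-positive cells let in (that criterion alone dropped, added after seeing the data), the ratios were 0.022 for the 7 genes of the rule (here and below a description, since they chose the cells), -0.14 for basement membrane, 0.015 for procollagen folding, 0.044 for heat shock, -0.015 for hypoxia and glycolysis, 0.025 for lipid genes, -0.014 for G2/M, 0.39 for cxcl12a, 0.10 for myl6, 0.19 for serpinh1b and 0.68 for si:ch211-199o1.2, with 878 genes higher and 567 lower. Without any exclusion gene they were 0.046 for the rule genes, -0.22 for basement membrane, -0.058 for retinoids, 0.044 for heat shock, -0.014 for hypoxia, 0.29 for cxcl12a, 0.0036 for myl6, 0.20 for serpinh1b and 0.40 for si:ch211-199o1.2, with 1070 genes higher and 652 lower. With the rule genes at 1% or more of UMIs they were -0.37 for the rule genes, -0.035 for procollagen folding, -0.21 for chemokines, 0.11 for lipid genes, -0.15 for G2/M, -1.22 for hmgn2 and -0.014 for id1, with 55 genes higher and 62 lower.

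An acta2 and tagln limit of 0.2% gave -0.093 for the rule genes and 0.45 for basement membrane. Size factors from the median of ratios gave -0.32 for the rule genes. Leaving out the cell of each library with the most UMIs of the list or gene in question gave -0.073 for the rule genes and -0.11 for hmgn2. Asking for 5 of the 7 genes gave -0.37 for hmgn2. Equal weight per cell gave 0.14 for fibril-associated collagens and 0.58 for S phase, and keeping the rule genes in the sums gave -0.20 for procollagen folding. At least 20 UMIs gave 885 genes higher and 505 lower, and at least 200 UMIs 31 higher and 23 lower. A resolution of 0.8 gave 4 sub-groups. Against rgs5a-positive cells 144 genes were higher and 50 lower.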
